A study of Haemulon flavolineatum and Haemulon macrostomum and Haemulon carbonarium with 36 samples.

Results

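The respiratory chain of the inner mitochondrial membrane passes electrons from NADH and succinate to oxygen and uses the proton gradient made on the way to synthesise ATP. Complex I (NADH dehydrogenase) and complex II (succinate dehydrogenase) take up the electrons, complex III (cytochrome b-c1) hands them to cytochrome c, complex IV (cytochrome c oxidase) reduces oxygen, and complex V is the ATP synthase. Most of the subunits are encoded in the nucleus, and the rest of the catalytic core is encoded in mitochondrial DNA. The liver is rich in mitochondria, and the nuclear-encoded subunits are described here in livers of 3 grunts of the genus *Haemulon*.

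The members are isogroups, the gene-level clusters of the *H. macrostomum* liver transcriptome, whose protein name is a nuclear-encoded subunit of complexes I to V. They number 31 of 58532 isogroups: 11 of complex I, 1 of complex II, 4 of complex III, 9 of complex IV and 6 of complex V, for 28 distinct proteins. The rows of 28 members were analysed here, and 25 of these passed the count filter and were tested. Only 15 members were named by the part of the transcriptome annotation at hand. The other 16 were named by the study's table of DEGs, so they had already been selected for a difference between these same fish, and their calls are not independent evidence. Calls are therefore given over all 25 tested members and over the 11 tested members with an annotation name. isogroup11578, named only as a cytochrome c oxidase subunit, was left out because its name gives no subunit. It averaged 54.98 CPM in *H. carbonarium*, 148 CPM in *H. flavolineatum* and 72.98 CPM in *H. macrostomum*, and with it the counts of calls given below would be 10, 4 and 4 in place of 9, 4 and 3.

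The livers came from wild fish collected within 2 days in the Bocas del Toro Archipelago: 8 *H. carbonarium*, 17 *H. flavolineatum* and 11 *H. macrostomum*. Each fish gave 1 TagSeq library. No fish was treated, and age and sex are not given by the labels. The study describes the fish as without gonadal development and most *H. macrostomum* as taken on exposed outer reefs, so species and site cannot be told apart. TagSeq counts 1 tag near the 3′ end of each mRNA, so levels need no correction for transcript length. They are given as CPM, counts relative to the scaled library total.

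Total counts ranged from 578011 to 3252882 per fish. Proteins secreted by hepatocytes, the defining cells of liver, summed to between 9232 and 56882 CPM in every fish. Their means were 39849 ± 7990 CPM in *H. carbonarium* (SD, n = 8), 25743 ± 8145 CPM in *H. flavolineatum* (n = 17) and 42893 ± 7872 CPM in *H. macrostomum* (n = 11). Exocrine pancreas enzymes, from the tissue lying within the liver of many bony fishes, summed to 22453 ± 16099 CPM in *H. carbonarium* (SD, n = 8), 8436 ± 4207 CPM in *H. flavolineatum* (n = 17) and 3745 ± 2482 CPM in *H. macrostomum* (n = 11). In 6 *H. flavolineatum* (fish 3, 10, 12, 13, 14 and 18), egg proteins took 9.53 to 19.4% of the counts, against at most 0.495% in every other fish. The part of these differences in the results below was not tested, but the counts over all members are also given without the 6 fish. All reads were mapped to *H. macrostomum*, so a low count in *H. carbonarium* or *H. flavolineatum* cannot be told apart from a sequence that differs from the reference. Likewise, fewer cells of a type and less RNA per cell cannot be told apart in whole liver.

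Complex IV held most of the summed CPM of the analysed members. Its 7 analysed members summed to 896 ± 104 CPM in *H. carbonarium* (SD, n = 8; lowest 722, highest 1057), 1213 ± 224 CPM in *H. flavolineatum* (n = 17; 663 to 1646) and 1162 ± 135 CPM in *H. macrostomum* (n = 11; 982 to 1384). This was 62.0%, 68.7% and 64.3% of the summed CPM of all 28 analysed members in the respective species. COX4-2 and COX8B alone made up 72.9%, 81.2% and 70.3% of the complex IV sum. The 11 members of complex I summed to 269 ± 51.3, 281 ± 59.98 and 292 ± 35.2 CPM, in the same order of species, with ranges that overlapped throughout. Complex III summed to 131 ± 25.1, 111 ± 40.1 and 170 ± 32.2 CPM, and complex V to 134 ± 21.6, 153 ± 40.5 and 163 ± 18.7 CPM. Complex II is represented by a single isogroup, the iron-sulfur subunit SDHB, at 15.3 ± 4.44, 12.3 ± 4.18 and 20.2 ± 9.49 CPM. These sums cover only the members named here, and COX4-2 and COX8B were named by the DEG table only. They therefore do not rank the whole complexes, and they are described without a test.

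**Figure D1:**
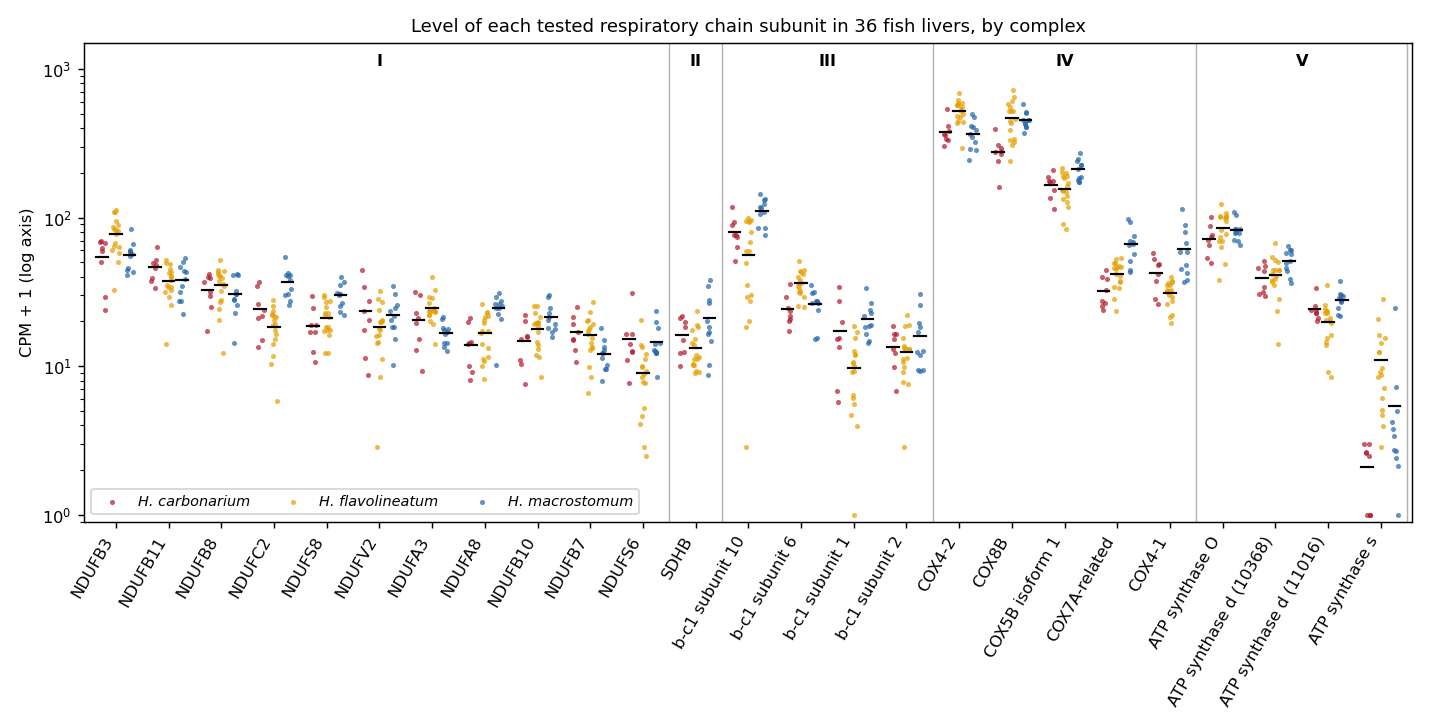
Level of each of the 25 tested subunits in 36 livers, as CPM + 1 on a log axis, grouped by complex and ordered by mean level. Each point is 1 fish and each black line a species mean. COX4-2 and COX8B stand above the other members in all 3 species. The points of the species overlap for every subunit, as did the levels of most tested isogroups.

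The test compared the species gene by gene with edgeR's quasi-likelihood test, adjusted by Benjamini-Hochberg over 8598 tested isogroups, and an isogroup is called a DEG at an adjusted p under 0.01. Between *H. flavolineatum* and *H. macrostomum*, 9 of 25 members were DEGs, 7 lower and 2 higher in *H. flavolineatum*, beside 26% of all tested isogroups (14.4% lower, 11.6% higher). Between *H. carbonarium* and *H. macrostomum*, 4 of 25 were DEGs, all lower in *H. carbonarium*, beside 13.5% of all tested isogroups (7.41% lower, 6.08% higher). Between *H. carbonarium* and *H. flavolineatum*, 3 of 25 were DEGs, again all lower in *H. carbonarium*, beside 14.4% of all tested isogroups (6.55% lower, 7.85% higher). In all, 13 members were called in at least 1 comparison and 12 in none. Of the 11 annotation-named members, 1 was called in each comparison, always as lower in the species named first, and 9 were called in none. No share of all tested isogroups called in at least 1 comparison is given here. The counts pooled over comparisons are therefore a description only. Of the 332 tested isogroups with an annotation name, 16% were called between *H. carbonarium* and *H. flavolineatum* (6.63% lower, 9.34% higher), 16.3% between *H. carbonarium* and *H. macrostomum* (10.5% lower, 5.72% higher) and 28.6% between *H. flavolineatum* and *H. macrostomum* (18.7% lower, 9.94% higher). The share of these members called was 9.09% in each comparison, which is 1 member. Without the 6 egg-protein fish, 8 of the 25 members were called between *H. flavolineatum* and *H. macrostomum*, 3 between *H. carbonarium* and *H. macrostomum* and 2 between *H. carbonarium* and *H. flavolineatum*, beside 22.5%, 14.4% and 12.4% of all isogroups tested in that fit. The COX7A-related isogroup10057, below the filter with all fish, passed it there and was called in addition in both comparisons with *H. macrostomum*. It could pass only through *H. macrostomum*, the species where it was high, and its name came from the DEG table only. These calls are thus not independent evidence.

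No tested member separated the species completely, and in each comparison neither did most tested isogroups, so this is not particular to the members. The levels of the fish overlapped between species for all 25 members in every comparison, where the share of all tested isogroups without overlap was 2.42% between *H. carbonarium* and *H. flavolineatum*, 3.59% between *H. carbonarium* and *H. macrostomum* and 3.54% between *H. flavolineatum* and *H. macrostomum*. The median log2 fold change of the 25 members was -0.08, -0.28 and -0.32 in these comparisons, in that order, beside -0.05, 0.00072 and 0.04 over all tested isogroups. For the 11 annotation-named members the medians were -0.08, -0.12 and -0.27.

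**Figure D2:**
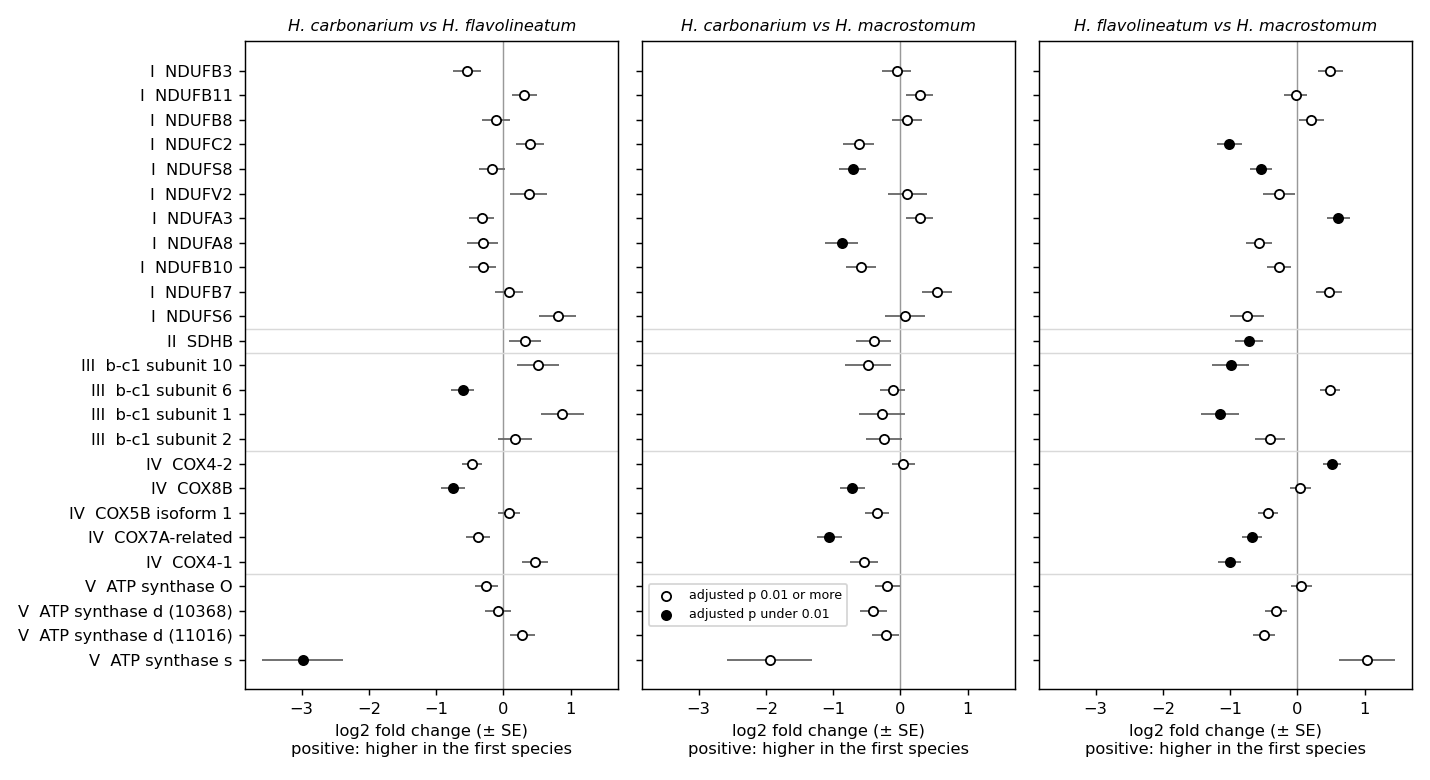
Log2 fold change of each tested subunit (± SE) in the 3 species comparisons, by complex, with negative values for a lower level in the species named first. Filled points have an adjusted p under 0.01 (edgeR, quasi-likelihood): 3, 4 and 9 of 25 members from left to right, with ATP synthase s the farthest from 0.

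Members of complex I spanned its functional modules, and only some of them differed. NDUFC2 (isogroup13569), an accessory subunit of the membrane arm, had a median of 18.3 CPM in *H. flavolineatum* (4.85 to 27.0), 21.9 CPM in *H. carbonarium* (12.5 to 36.1) and 37.0 CPM in *H. macrostomum* (24.6 to 53.1). Of the 17 *H. flavolineatum*, 16 lay below the lowest *H. macrostomum*, as did 5 of the 8 *H. carbonarium*. Its level was 2.02-fold lower in *H. flavolineatum* than among *H. macrostomum* (log2 fold change -1.01 ± 0.19 SE, adjusted p = 3.44e-05 in edgeR), a call kept under all 45 alternatives run. The alternatives refit these same fish, and NDUFC2 was named by the DEG table only, so the call is not independent evidence. NDUFC2 in *H. carbonarium* against *H. macrostomum* had a log2 fold change of -0.62 ± 0.23 (adjusted p = 0.047), which is not a call.

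NDUFS8, an iron-sulfur core subunit that carries electrons towards ubiquinone, had medians of 16.9 CPM in *H. carbonarium* (9.59 to 28.6), 20.4 CPM in *H. flavolineatum* (11.2 to 29.1) and 29.5 CPM in *H. macrostomum* (21.1 to 38.7). Both other species were lower than *H. macrostomum*, with log2 fold changes of -0.71 ± 0.20 (adjusted p = 0.00914) and -0.54 ± 0.16 (adjusted p = 0.00857) in edgeR. These calls lie close to the threshold. The first was lost on leaving out any of 21 of the 36 fish (adjusted p up to 0.028) and the second on leaving out any of 13 (up to 0.019), and without the egg-protein fish the adjusted p were 0.010 and 0.022. Of the 45 alternatives, 19 kept the first call and 28 the second, with adjusted p up to 0.096 and 0.081 in edgeR. NDUFA8, an accessory subunit on the intermembrane side, had medians of 13.2, 16.2 and 24.4 CPM in *H. carbonarium*, *H. flavolineatum* and *H. macrostomum*, and was lower in *H. carbonarium* than in *H. macrostomum* (-0.87 ± 0.24, adjusted p = 0.00707 in edgeR), a call lost on leaving out any of 12 fish. The NDUFA8 call held under 29 of the 45 alternatives, with adjusted p up to 0.046 in edgeR. Both NDUFS8 and NDUFA8 were named by the DEG table only, so their calls are not independent evidence.

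NDUFA3, another accessory subunit of the membrane arm, went the other way. It had a median of 22.5 CPM in *H. flavolineatum* (13.04 to 38.7) and 15.9 CPM in *H. macrostomum* (11.6 to 20.5), and 14 of the 17 *H. flavolineatum* lay above every *H. macrostomum*. The log2 fold change was 0.61 ± 0.17 (adjusted p = 0.00488 in edgeR). NDUFA3 was named by the DEG table only, so the call is not independent evidence. The call held under 37 of the 45 alternatives, with adjusted p up to 0.131 in edgeR. It was lost without *H. flavolineatum* fish 9 or without *H. macrostomum* fish 3, 5, 7, 9 or 10 (up to 0.013). It was also lost without a count filter and with fish number as a replicate block.

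The most abundant member of complex I, NDUFB3 of the membrane arm, averaged 52.9 ± 17.99 CPM in *H. carbonarium*, 76.8 ± 21.8 CPM in *H. flavolineatum* and 54.9 ± 12.4 CPM in *H. macrostomum*. It did not pass in any comparison (adjusted p of 0.032 to 0.893 in edgeR), though without the egg-protein fish it was higher in *H. flavolineatum* than in *H. macrostomum* (log2 fold change 0.65, adjusted p = 0.00436). NDUFB3 was named by the DEG table only, so that call is not independent evidence. All 6 annotation-named members of complex I stayed uncalled in every comparison. These were NDUFV2, an iron-sulfur core subunit of the arm that oxidises NADH, NDUFS6, an accessory subunit of that arm, and NDUFB7, NDUFB8, NDUFB10 and NDUFB11 of the membrane arm. Among these 6, NDUFS6 had the largest fold changes, with 0.81 ± 0.28 for *H. carbonarium* against *H. flavolineatum* (adjusted p = 0.031) and -0.74 ± 0.25 for *H. flavolineatum* set against *H. macrostomum* (adjusted p = 0.018), and both were called without *H. flavolineatum* fish 6 (0.0099 and 0.0053). For NDUFB11 the difference between *H. flavolineatum* and *H. macrostomum* was -0.03, with 2 SE either side spanning -0.36 to 0.30.

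In complex II, SDHB carries electrons through its iron-sulfur clusters. Its median was 10.6 CPM in *H. flavolineatum* (8.002 to 22.6) and 17.4 CPM in *H. macrostomum* (7.73 to 36.9), with wide overlap. The level was lower in *H. flavolineatum* (log2 fold change -0.72 ± 0.21, adjusted p = 0.00679 in edgeR). The call did not hold without the egg-protein fish (-0.65, adjusted p = 0.038), nor without *H. flavolineatum* fish 3, 7 or 8 or *H. macrostomum* fish 6, 8 or 11 (adjusted p up to 0.021). In all, 36 of the 45 alternatives kept it. SDHB was named by the DEG table only, so the call is not independent evidence.

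In complex III some members were lower in *H. flavolineatum* and others were not. The core protein b-c1 subunit 1 had a median of 8.97 CPM in *H. flavolineatum* (0 to 17.5) and 17.8 CPM in *H. macrostomum* (13.3 to 32.4), and was 2.22-fold lower in *H. flavolineatum* (log2 fold change -1.15 ± 0.29, adjusted p = 0.00139 in edgeR). Its partner core protein, b-c1 subunit 2, had medians of 12.003 and 11.6 CPM in *H. flavolineatum* and *H. macrostomum* and was not called (-0.41 ± 0.23, adjusted p = 0.151). b-c1 subunit 10, a small accessory subunit and the most abundant member of this complex, ranged from 1.86 to 98.9 CPM among *H. flavolineatum* (median 58.2), against 75.4 to 142 CPM among *H. macrostomum* (median 116), and 11 of the 17 *H. flavolineatum* lay below the *H. macrostomum* range. It was 1.99-fold lower in *H. flavolineatum* (-0.99 ± 0.28, adjusted p = 0.00467 in edgeR), with calls under all 45 alternatives. Both b-c1 subunit 1 and b-c1 subunit 10 were named by the DEG table only, so their calls are not independent evidence. The biological coefficient of variation of b-c1 subunit 10, 0.484, was above that of 62.2% of tested isogroups and the second highest of the members.

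b-c1 subunit 6, the hinge protein between cytochrome c1 and cytochrome c, was highest in *H. flavolineatum*. Its median was 35.2 CPM in *H. flavolineatum* (23.96 to 50.2), 21.6 CPM in *H. carbonarium* (16.2 to 34.6) and 25.97 CPM in *H. macrostomum* (14.3 to 34.4). It was lower in *H. carbonarium* than in *H. flavolineatum* (-0.60 ± 0.17, adjusted p = 0.00844 in edgeR), and *H. flavolineatum* against *H. macrostomum* gave 0.49 ± 0.15 (adjusted p = 0.0102), just outside the threshold. This is 1 of the 2 annotation-named members with a call, and the call was lost on leaving out any of 27 of the 36 fish (adjusted p up to 0.037) and without the egg-protein fish (0.020). It held under only 13 of the 45 alternatives, with adjusted p up to 0.192 in edgeR.

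Complex IV included the most abundant members. The COX7A-related protein, whose mammalian counterpart COX7A2L joins complexes III and IV, is the other annotation-named member with a call. Its isogroup8475 had medians of 29.0 CPM in *H. carbonarium* (23.0 to 43.3), 44.0 CPM in *H. flavolineatum* (22.4 to 52.2) and 65.7 CPM in *H. macrostomum* (41.7 to 97.1). Below the lowest *H. macrostomum* lay 7 of the 8 *H. carbonarium* but only 8 of the 17 *H. flavolineatum*. It was 2.08-fold lower in *H. carbonarium* than in *H. macrostomum* (log2 fold change -1.06 ± 0.19, adjusted p = 5.24e-05) and 1.60-fold lower in *H. flavolineatum* than among *H. macrostomum* (-0.68 ± 0.15, adjusted p = 0.000469) in edgeR. The first call held under all 45 alternatives and the second under 44.

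A separate isogroup of a COX7A-related protein, isogroup10057, lay below the count filter and was not tested. Its level nevertheless set every *H. macrostomum* apart from all other fish. It held 121 counts in the 11 *H. macrostomum*, with 5 to 22 in each fish, 1 count in the 17 *H. flavolineatum* and 0 in the 8 *H. carbonarium*. It was at least 24.6-fold higher in *H. macrostomum* than in *H. carbonarium*, taking 3 counts over the group as the limit that a count of 0 allows. Against *H. flavolineatum* the ratio was 159, with an exact 95% interval of 27.9 to 6319 for counting error only. In *H. macrostomum* it made up 9.14 ± 3.30% of the counts of both COX7A-related isogroups (SD, n = 11; 3.92 to 16.2%). Here too, species and match to the reference cannot be told apart. Its name came from the DEG table only, so isogroup10057 had already been selected for a difference between these same fish.

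COX4, the largest nuclear-encoded subunit of complex IV, is represented by its 2 isoforms. In mammals COX4-1 is found in most tissues and COX4-2 mainly in lung, yet the COX4-2 isogroup had the higher level in every liver here. How fully the assembly covers the 3′ end of each isogroup was not tested, and it can affect this ranking. COX4-2 had medians of 362 CPM in *H. carbonarium* (302 to 533), 534 CPM in *H. flavolineatum* (291 to 684) and 361 CPM in *H. macrostomum* (244 to 498). It was 1.43-fold higher in *H. flavolineatum* than in *H. macrostomum* (log2 fold change 0.51 ± 0.14, adjusted p = 0.00339 in edgeR). The call held under 39 of the 45 alternatives, with adjusted p up to 0.209 in edgeR. It was lost without *H. flavolineatum* fish 10 or *H. macrostomum* fish 2, 7 or 9 (up to 0.013). It was also lost without a count filter and with fish number as a replicate block. Against *H. carbonarium* COX4-2 was not called (adjusted p = 0.025), except with DESeq2 (0.0074) and without *H. flavolineatum* fish 12 (0.0081). COX4-1 (isogroup6678) went the opposite way, with medians of 43.8 CPM in *H. carbonarium* (25.1 to 56.3), 31.2 CPM in *H. flavolineatum* (18.4 to 38.9) and 57.2 CPM in *H. macrostomum* (35.96 to 112). Of the 17 *H. flavolineatum*, 15 lay below the *H. macrostomum* range, and COX4-1 was 2.01-fold lower in *H. flavolineatum* (-1.01 ± 0.17, adjusted p = 9.23e-06 in edgeR), with calls under all 45 alternatives. Both isoforms were named by the DEG table only, so their calls are not independent evidence.

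The share of COX4-2 in the counts of both COX4 isoforms does not depend on library scaling. It was 94.5 ± 1.04% in *H. flavolineatum* (SD, n = 17; 92.3 to 97.0%), 89.9 ± 3.20% in *H. carbonarium* (n = 8; 85.4 to 93.6%) and 86.0 ± 3.03% in *H. macrostomum* (n = 11; 80.8 to 91.6%). The shares of *H. flavolineatum* and *H. macrostomum* did not overlap, whereas *H. carbonarium* overlapped both. Both isoforms were named by the DEG table, so the shares are a description without a test.

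COX8B (isogroup878), a small subunit whose mammalian form is typical of heart and skeletal muscle, was low in *H. carbonarium*. Its medians were 277 CPM in *H. carbonarium* (159 to 396), 460 CPM in *H. flavolineatum* (240 to 718) and 449 CPM in *H. macrostomum* (368 to 578). Of the 8 *H. carbonarium*, 7 lay below the *H. macrostomum* range. It was lower in *H. carbonarium* than among *H. flavolineatum* (log2 fold change -0.75 ± 0.18, adjusted p = 0.00175) and than in *H. macrostomum* (-0.71 ± 0.19, adjusted p = 0.00536) in edgeR. The difference between *H. flavolineatum* and *H. macrostomum* was 0.04 (2 SE either side, -0.27 to 0.35). The first call was lost without *H. carbonarium* fish 4 (adjusted p = 0.0106), and the second without *H. carbonarium* fish 2, 3, 4, 7 or 8 or *H. macrostomum* fish 2, 5 or 8 (up to 0.017). These calls held under 42 and 34 of the 45 alternatives, with adjusted p up to 0.064 and 0.077 in edgeR. COX8B was named by the DEG table only, so its calls are not independent evidence. The 3 muscle markers summed to at most 28.8 CPM in any fish, with a mean of 10.3 CPM in *H. carbonarium*, 1.57 CPM in *H. flavolineatum* and 3.03 CPM in *H. macrostomum*.

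COX5B isoform 1, a zinc-binding subunit, averaged 165 ± 30.1 CPM in *H. carbonarium*, 155 ± 38.5 CPM in *H. flavolineatum* and 210 ± 33.8 CPM in *H. macrostomum*, and did not pass between any species (adjusted p of 0.017 to 0.770 in edgeR). The other COX5B isogroup, isogroup16529, was too low to test, with 56 counts over the *H. carbonarium*, 10 over the *H. flavolineatum* and 27 over the *H. macrostomum*. It was 12.04-fold more frequent in *H. carbonarium* than in *H. flavolineatum* (exact 95% interval 6.09 to 26.5, counting error only), although 2 of the 8 *H. carbonarium* had no count and the highest reached 10.3 CPM. Since isogroup16529 was named by the DEG table only, this ratio is not independent evidence. COX6B1 and NDUFA4, now placed in complex IV, were not analysed here.

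**Figure D3:**
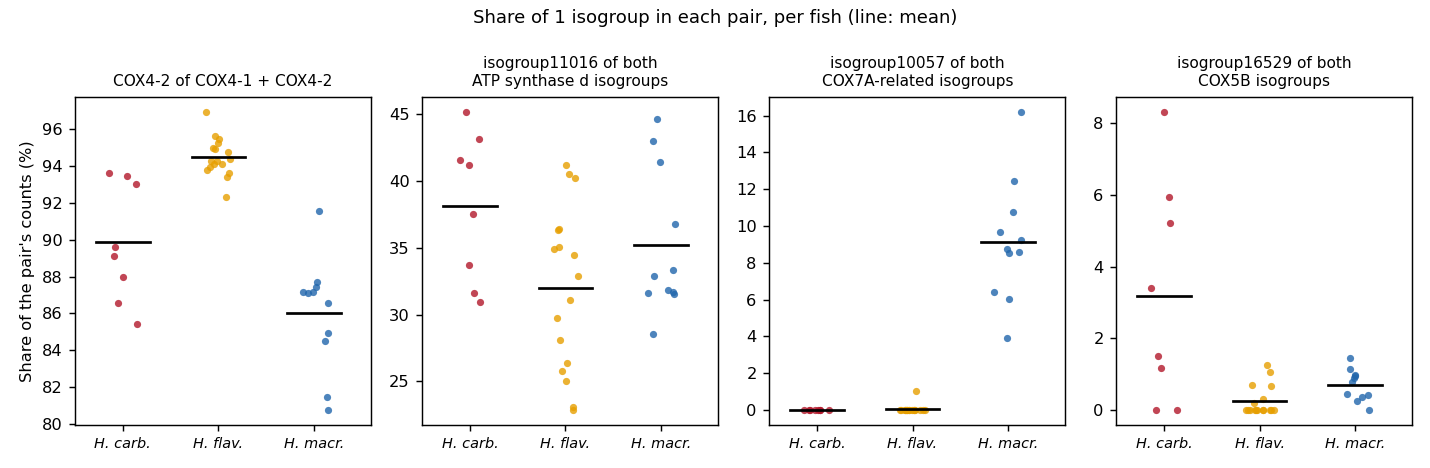
Share (%) of 1 isogroup in the summed counts of each pair that encodes the same protein or its isoforms, per fish and species, with a line at the species mean and a separate vertical scale in each panel. COX4-2 lies above 92% in every *H. flavolineatum* and below 92% in every *H. macrostomum*, and isogroup10057 is near 0 outside *H. macrostomum*.

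In complex V only subunit s, also known in mammals as coupling factor B, was called. ATP synthase s had 14 counts in all *H. carbonarium* together (0 to 1.997 CPM), a median of 8.07 CPM in *H. flavolineatum* (1.86 to 27.5) and a median of 2.42 CPM in *H. macrostomum* (0 to 23.6). It was 7.90-fold lower in *H. carbonarium* than among *H. flavolineatum* (log2 fold change -2.98 ± 0.60, adjusted p = 0.000243 in edgeR), with calls under all 45 alternatives. ATP synthase s passed the count filter mainly through *H. flavolineatum*, where it was high, and its name came from the DEG table only. The call is therefore not independent evidence. The *H. macrostomum* value rests on fish 6, which held 73 of the 115 counts of that species. Without it ATP synthase s was also higher in *H. flavolineatum* than in *H. macrostomum* (1.91, adjusted p = 9.89e-05), where the value over all fish was 1.04 ± 0.42 (adjusted p = 0.048).

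The other tested subunits of the synthase belong to its peripheral stalk, and none was called. ATP synthase O, which ties the peripheral stalk to the catalytic head, averaged 71.2 ± 16.98 CPM in *H. carbonarium*, 84.7 ± 22.7 CPM in *H. flavolineatum* and 81.4 ± 13.4 CPM in *H. macrostomum*. Its log2 fold change between *H. flavolineatum* and *H. macrostomum* was 0.06 (2 SE either side, -0.26 to 0.37). Subunit d of the peripheral stalk was counted in 2 isogroups, and isogroup11016 took 38.1 ± 5.48%, 32.0 ± 6.08% and 35.2 ± 5.42% of their counts in the order *H. carbonarium*, *H. flavolineatum*, *H. macrostomum*, and the shares overlapped between all species. Neither was called, with adjusted p of 0.014 for isogroup11016 and 0.126 for isogroup10368 between *H. flavolineatum* and *H. macrostomum*. The c3 isogroup of the rotor ring held 6 counts in all, 5 of them in 1 *H. macrostomum*, and ATP synthase f was not analysed here.

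Variation between fish of a species was low for most subunits. The median biological coefficient of variation of the 25 members was 0.294 (0.220 to 0.703), beside 0.432 over all tested isogroups and 0.433 over the 2268 isogroups at or above the members' median level. The lowest were ATP synthase d isogroup11016, at 0.220, and b-c1 subunit 6, at 0.232, and the highest was ATP synthase s, at 0.703. The sum of all 28 analysed members varied 1.31-fold between the lowest and highest *H. carbonarium*, 1.41-fold among *H. macrostomum* and 2.56-fold among *H. flavolineatum*.

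To describe covariation, each member was correlated across the fish of 1 species with the sum of the other members, on log2(CPM + 1). The sum weights members by their level, so complex IV, and in it COX4-2 and COX8B, makes up most of it. Levels from 1 library share its scaling, so the same correlation is given for the other 8573 tested isogroups. In *H. flavolineatum* the median Pearson r of the 25 members was 0.65 (n = 17), beside 0.06 for the other isogroups, and 20 members had r above 0.5, beside 14.4% of the others. In *H. macrostomum* the median was 0.41 (n = 11), beside 0.02, with 8 members above 0.5, beside 5.72%. In *H. carbonarium* it was 0.18 (n = 8), beside 0.06, with 7 members above 0.5, beside 15.6%. Over the 2255 other isogroups at or above the members' median level, the medians of r were 0.18, 0.04 and 0.095 in the same order of species. Of these isogroups, 22.8%, 7.10% and 18.1% had r above 0.5. The medians of Spearman's rho of the members were 0.50, 0.33 and 0.12. With equal weight for each member, a score added after seeing the data, the medians of r were 0.66, 0.45 and 0.37. The other isogroups then had 0.07, 0.02 and 0.07.

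Among *H. flavolineatum*, leaving out fish 12 lowered the median r more than leaving out any other single fish. Fish 12 had the lowest sum of members, 883 CPM against 1336 to 2260 CPM in the other *H. flavolineatum*, with complex I at 119 CPM and b-c1 subunit 10 at 1.86 CPM. This fish is 1 of the 6 with egg proteins, its total was 827176 counts, and 68.2% of them fell in its 10 most abundant isogroups. Without fish 12 the median r fell to 0.41, beside 0.02 for the other isogroups, and without the 2 fish farthest from the median of the sum it was 0.27. Without all 6 egg-protein fish, fish 12 among them, it was 0.57, and what the value rests on was not tested. In *H. carbonarium* the median r turned to -0.14 without the 2 farthest fish, and in *H. macrostomum* it remained at 0.41.

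**Figure D4:**
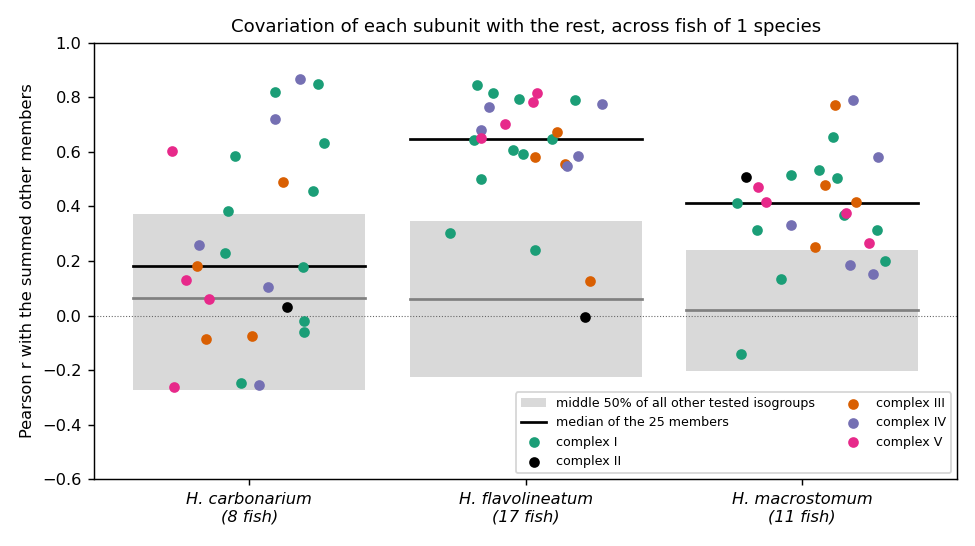
Pearson r of each of the 25 tested subunits with the summed other members, across fish of 1 species. Points are coloured by complex, the black line is the median of the members (0.18, 0.65 and 0.41) and the grey band holds the middle 50% of the other 8573 tested isogroups, with their median as a grey line.

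The subunits differed in how far they followed the rest. COX4-1 had r above 0.5 in all 3 species (0.72, 0.55 and 0.79 in *H. carbonarium*, *H. flavolineatum* and *H. macrostomum*), the only member to do so. Without the 2 fish farthest from the median of the sum, these were -0.66, 0.14 and 0.58, so only the *H. macrostomum* value stayed above 0.5. The r of the 3 species were averaged on Fisher's z scale, which gives values near 1 more weight, and turned back into r. By this mean over all fish, COX4-1 was followed by COX5B isoform 1, at 0.65 (0.87, 0.68 and 0.15 in the same order of species). The complex I subunits NDUFB8, at 0.64 (0.38, 0.79 and 0.65), NDUFB11, at 0.61 (0.59, 0.82 and 0.31), and NDUFB3, at 0.60 (0.85, 0.61 and 0.14), came next. Without the 2 farthest fish the r were 0.43, 0.28 and 0.41 for COX5B isoform 1 and -0.14, 0.46 and 0.76 for NDUFB8. They were -0.24, 0.52 and -0.12 for NDUFB11 and -0.45, 0.02 and 0.71 for NDUFB3. SDHB was lowest by the mean, with 0.03, -0.0035 and 0.51 over all fish. Altogether 16 members had a positive r in all 3 species and 9 had a negative r in at least 1. COX4-2 was negative in *H. carbonarium* (-0.25) and positive in the other species (0.77 and 0.58).

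Pairs of members were also compared within and between complexes. In *H. macrostomum* the median r over the 77 pairs of members of 1 complex was 0.16, beside 0.21 over the 223 pairs from different complexes. In *H. flavolineatum* the medians were 0.48 and 0.44, and in *H. carbonarium* 0.23 and 0.13. The complexes differed within a species. In *H. macrostomum* the medians were 0.16 within complex I (55 pairs), 0.55 within III (6 pairs), 0.18 within IV (10 pairs) and 0.10 within V (6 pairs). In *H. flavolineatum* they were 0.44, 0.35, 0.51 and 0.68, and in *H. carbonarium* 0.26, 0.08, 0.09 and -0.03. Pairs that share a member are not independent, and no test was made of these medians.

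Between the summed complexes, IV and V gave the closest relation in *H. flavolineatum*, with r = 0.84 and rho = 0.62 (n = 17), and r = 0.62 without the 2 fish farthest in complex IV. Complexes I and IV gave 0.77, which dropped to 0.23 without the 2 farthest fish. In *H. macrostomum*, IV and V gave 0.68 and II and III 0.73 (n = 11), with 0.51 and 0.62 without the 2 farthest. In *H. carbonarium*, II and III gave 0.66 (n = 8), and IV and V 0.07. The sums share a library and its scaling, and the relations are given without a test.

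**Figure D5:**
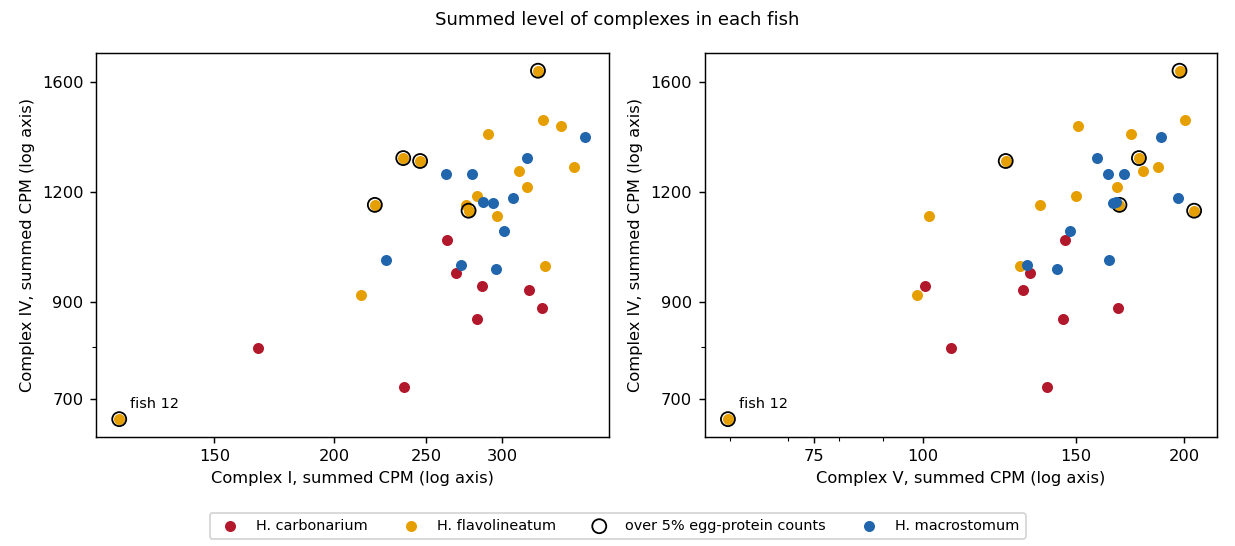
Summed CPM of complex IV against complex I (left) and complex V (right) in each of 36 fish, on log axes. Circled points are the 6 *H. flavolineatum* with over 5% egg-protein counts; fish 12 is lowest in all 3 sums, and 7 of 8 *H. carbonarium* lie below every *H. macrostomum* in complex IV.

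A test was possible for single isogroups. The most abundant members of complexes I, III, IV and V (NDUFB3, b-c1 subunit 10, COX4-2 and ATP synthase O) form 6 pairs, tested in each species with two-sided permutation tests, exact for *H. carbonarium*, and adjusted over 18 relations. None passed an adjusted p of 0.05 by Pearson's r or Spearman's rho. At an unadjusted p under 0.05 there were 5 by Pearson's r, all in *H. flavolineatum*. The largest was COX4-2 with ATP synthase O, with r = 0.66 (permutation p = 0.00633, adjusted p = 0.081) and rho = 0.38 (permutation p = 0.134, adjusted p = 0.601), and r = 0.30 without the 2 fish farthest in COX4-2. The other 4 had r of 0.56 to 0.64 (adjusted p of 0.081 to 0.096), and 0.06 to 0.30 without the 2 farthest fish. In *H. macrostomum* r ranged from -0.50 to 0.43 and in *H. carbonarium* from -0.35 to 0.58. These relations in *H. flavolineatum* were weaker without the farthest fish. Leaving out extreme fish also narrows the range, which by itself can lower r, so what the relations rest on cannot be told.

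Other measures moved with the sum of the members to different degrees in each species. In *H. flavolineatum* its r was 0.52 with total counts, -0.35 with the share of the 10 most abundant isogroups, -0.26 with egg proteins and 0.48 with exocrine pancreas enzymes (n = 17). In *H. macrostomum* these were 0.29, -0.49, 0.07 and 0.02 (n = 11), and in *H. carbonarium* -0.10, 0.76, 0.17 and -0.19 (n = 8). Without the 2 fish farthest in each measure, these became 0.48, 0.04, -0.48 and 0.50 in *H. flavolineatum*, 0.19, -0.51, -0.39 and -0.66 in *H. macrostomum* and -0.28, 0.75, -0.56 and -0.75 in *H. carbonarium*. With the scaling factor, r was 0.17, -0.16 and -0.61 in the same order of species, and -0.13, -0.02 and 0.09 without the 2 farthest fish. Hepatocyte proteins gave 0.48, 0.34 and 0.24 (-0.14, 0.18 and -0.84 without the 2 farthest). Respiratory chain assembly factors gave 0.81, 0.03 and 0.23 (0.48, 0.24 and 0.43). Citric acid cycle isogroups gave 0.71, 0.42 and 0.14 (0.33, 0.37 and 0.31), and mitochondrial ribosomal proteins 0.67, 0.19 and 0.85 (0.08, -0.12 and -0.48). Their part in the covariation was not tested. The sum of the 12 isogroups encoded in mitochondrial DNA had r of -0.28, 0.28 and -0.26 with the nuclear-encoded sum in *H. carbonarium*, *H. flavolineatum* and *H. macrostomum*, and of 0.50, 0.04 and 0.38 without the 2 farthest fish.

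Outside the members, the 10 of 1322 named tested isogroups most like the sum had a mean r over species, again on Fisher's z scale, of 0.69 to 0.74. They were reactive oxygen species modulator 1 (0.74), huntingtin interacting protein K (0.73), cystatin (0.72), the gamma subunit of the protein transporter Sec61 (0.71), mitochondrial ribosomal protein L15 (0.71), endothelial differentiation-related factor 1 (0.71), inorganic pyrophosphatase (0.70), translation initiation factor 2A (0.70), the C-type lectin CLEC17A (0.69) and the mitochondrial protease-like LACTB (0.69). They are the highest of many, and are listed as a description. The members themselves ranged from 0.19 to 0.70 on this measure.

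Other proteins of the pathway did not share a common direction. All 12 mitochondrial DNA-encoded isogroups were tested. In *H. carbonarium* 7 were DEGs higher and 5 lower than among *H. flavolineatum*, beside 14.4% of all tested isogroups called. Against *H. macrostomum*, *H. carbonarium* gave 3 higher and 0 lower (beside 13.5%) and *H. flavolineatum* 5 higher and 6 lower (beside 26%). All 12 were named by the DEG table only, as were the COQ10 protein, CMC2 and succinate dehydrogenase assembly factor 4 below. They had thus been selected for a difference between these same fish, and their calls are not independent evidence. Among the 12, isogroups of a single mitochondrial protein differed in direction, as in ATP synthase subunit a, with log2 fold changes of 5.56 and -2.97 for its isogroups between *H. carbonarium* and *H. flavolineatum*. Of the 3 tested electron and ATP carriers, 2 were called between *H. flavolineatum* and *H. macrostomum*, beside 26% of all tested isogroups. Both were lower in *H. flavolineatum*: cytochrome c (-2.70 ± 0.65, adjusted p = 0.00101 in edgeR) and the ubiquinone-binding COQ10 protein (-1.01 ± 0.28, adjusted p = 0.00386). Cytochrome c was at 354 CPM in *H. macrostomum* fish 6, against 4.18 to 52.9 CPM in the other *H. macrostomum*, and without this fish it was not called (-0.86 ± 0.51, adjusted p = 0.191). The COQ10 call was lost without the egg-protein fish (adjusted p = 0.012). The 2 tested assembly factors were both called there, again beside 26%. The COX assembly protein CMC2 was higher in *H. flavolineatum* than in *H. macrostomum* (1.19 ± 0.18, adjusted p = 2.01e-06) and the succinate dehydrogenase assembly factor 4 lower (-0.74 ± 0.21, adjusted p = 0.00546). The second call was lost without the egg-protein fish (adjusted p = 0.030) and without *H. macrostomum* fish 9 (0.011). Assembly factor 4 was also lower in *H. carbonarium* than in *H. macrostomum* (-1.30 ± 0.27, adjusted p = 0.000437 in edgeR), beside 13.5% of all tested isogroups called.

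Among enzymes that feed the chain, mitochondrial malate dehydrogenase, which makes NADH in the citric acid cycle, was lower in *H. flavolineatum* than among *H. macrostomum* (-1.69 ± 0.17, adjusted p = 2.61e-10 in edgeR) and higher in *H. carbonarium* than among *H. flavolineatum* (1.55 ± 0.19, adjusted p = 2.19e-08). Of the 4 tested citric acid cycle isogroups, malate dehydrogenase passed as lower and dihydrolipoyl dehydrogenase as higher between *H. flavolineatum* and *H. macrostomum* (1.16, adjusted p = 0.00428 in edgeR), the latter not without the egg-protein fish (adjusted p = 0.036). Of the 6 tested mitochondrial ribosomal proteins, 1 was called there, L15, higher in *H. flavolineatum* (1.17 ± 0.21, adjusted p = 2.82e-05). These counts stand beside 26% of all tested isogroups called between *H. flavolineatum* and *H. macrostomum*. L15 was also lower in *H. carbonarium* than in *H. flavolineatum* (-1.50 ± 0.25, adjusted p = 1.78e-05 in edgeR), beside 14.4% of all tested isogroups called. L15 and dihydrolipoyl dehydrogenase had an annotation name, whereas malate dehydrogenase was named by the DEG table only, so its calls are not independent evidence.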

How the data were processed

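The deposited values are whole-number counts of reads per isogroup in 36 livers, without normalization. The authors removed low-quality reads and PCR duplicates, mapped TagSeq reads of all 3 species to the *H. macrostomum* liver transcriptome with Bowtie2 (up to 5 matches per read; version not given in the sources used here) and counted reads per isogroup. Total counts ranged from 578011 to 3252882. Related isogroups can share reads.

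Counts were analysed with edgeR 4.0.16 and limma 3.58.1 in R 4.3.3. Isogroups were kept by filterByExpr with species as groups (8598), scaled by TMM and fitted with species as the only term over all 36 fish. The threshold was an adjusted p under 0.01, and standard errors are the log2 fold change over the square root of F. CPM refers to the scaled total of tested isogroups. Correlations used log2(CPM + 1) with 100000 resamples (scipy 1.17.1). The code was tested on simulated data.

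Replicates are single fish. Alternatives were DESeq2 1.42.0, RLE and upper-quartile scaling, other filters, a threshold of 0.05, fits of 2 species at a time, no egg-protein fish, a replicate block, each fish left out, summed isogroups and other member lists. An equally weighted score was added after seeing the data.

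Protein names came from the first 2000 lines of each annotation table and from the study's DEG table, whose fold changes and p-values were not used. The members and lists were chosen with earlier results of these data known. Named are 4 members given at the outset, every member called, the most abundant of each complex, pairs for 1 protein and the 10 isogroups most correlated with the sum. Intervals cover counting error only.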

Additional observations from a re-analysis of the deposited data

Results flagged for a closer look

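Each of 25 tested members and 4 complex sums was checked in *H. carbonarium*, the only species with few enough fish for the check, for a fish set apart from the others by more than 0.526 of the range. Chance sets a fish apart in about 1 of 20 such groups, and 2 of 29 values had such a gap. NDUFS6 was at 29.8 CPM in *H. carbonarium* fish 5, against 6.66 to 15.5 CPM in the other fish. ATP synthase d isogroup11016 was at 32.5 CPM in *H. carbonarium* fish 7, against 19.2 to 24.3 CPM in the others. Neither member is called in a comparison that involves *H. carbonarium*.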

How the results depend on the processing

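All 16 calls of single members kept their direction under each of the 45 refits. The counts of called members moved more, and so did the shares of all tested isogroups called, given in brackets. For *H. carbonarium* against *H. flavolineatum*, 3 members (14.4%) became 6 (23.3%) at an adjusted p under 0.05, 5 (9.15%) with DESeq2, 1 (13.7%) with only these species fitted and 1 over annotation-named members. For *H. carbonarium* against *H. macrostomum*, 4 (13.5%) became 7 (22.5%) at an adjusted p under 0.05, 1 (13.4%) with upper-quartile scaling and 1 over annotation-named members. For *H. flavolineatum* against *H. macrostomum*, 9 (26%) became 17 (37.9%) at the same threshold, 15 (15.3%) with DESeq2, 5 (9.44%) without a count filter and 1 over annotation-named members. DESeq2 and the fit without a filter cover all 28 analysed members and far more low isogroups. Among the 25 members DESeq2 called 4, 4 and 14 and the fit without a filter 1, 2 and 4, and each also called isogroup16529 in the first comparison and isogroup10057 in the other two. Leaving out each fish in turn gave 1 to 4, 1 to 5 and 7 to 11 members, or 1 to 4, 1 to 4 and 6 to 10 of the 25. The difference is isogroup10057, which passed the filter, through *H. macrostomum* alone, and was called without 16 of the fish. The lowest count came without *H. carbonarium* fish 4 in the first comparison, and in the second 1 or 2 members were called without *H. carbonarium* fish 2, 3, 4, 6 or 7 or *H. macrostomum* fish 3, 5, 6 or 8. Between *H. flavolineatum* and *H. macrostomum*, NDUFA8, b-c1 subunit 6, COX5B isoform 1 and ATP synthase d isogroup11016 became calls on leaving out single fish. The cause was not tested.

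Fish numbers do not pair the fish: over 25 same-number pairs the correlation of deviations ran from -0.15 to 0.30 (median -0.03). With the number as a replicate block the counts were 2, 1 and 5 (8.37%, 10.6% and 19.1%).

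The median r of a member with the others in *H. carbonarium* was -0.14 without the 2 farthest fish, and 0.11 to 0.44 with each fish left out. In *H. flavolineatum* it was 0.27 without the 2 farthest and 0.41 to 0.67 with each fish left out, lowest without fish 12. In *H. macrostomum* it was 0.32 to 0.47. As shares of all counts, without scaling, all 6 single-isogroup relations of *H. flavolineatum* passed (r of 0.69 to 0.88, permutation tests), where the other isogroups also had a median r of 0.37. All 42 summed levels moved by less than 1 SD. Depth limits the 3 members below the filter, which held 6 to 122 counts.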
